A study of Mus musculus with 18 samples.

Results

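The genes described here are 10 tubulin isotypes, the alpha tubulins Tuba1a, Tuba1b, Tuba1c and Tuba4a and the beta tubulins Tubb2a, Tubb2b, Tubb3, Tubb4a, Tubb5 and Tubb6. They were chosen by name, as 10 of the 47643 genes listed in the count tables, and all 10 passed the filter on low counts that left 13771 genes to test. The series asked how the transcriptome of sensory neurons changes after their axons are cut. RNA was sequenced from spot cultures of embryonic dorsal root ganglia (eDRG) of CD-1 mice at e13.5, grown with the mitotic inhibitor FDU. The control group held 3 uninjured libraries collected at day in vitro 7. The other 5 groups held 3 libraries each, taken 1 h, 3 h, 8 h, 16 h or 24 h after a blade had cut the axons (hours post injury, HPI). No genotype or drug differed between the groups, and all 18 libraries came from cultures exposed to FDU. Each library holds a whole spot of embryonic neurons, so somata and the axon that remained attached were not separated. The labels do not say whether the 3 libraries of a group came from separate dissections, so p-values measure only the spread between these libraries, which may be technical.

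Alpha and beta tubulin join as dimers that polymerize into microtubules, the tracks for transport and the scaffold of the axon. Each family is encoded by several genes, called isotypes. Their proteins are much alike and end in an acidic tail that projects from the microtubule and is a target of enzymes. Tubb3 is the beta tubulin used as a marker of neurons, and Tuba1a and Tubb2b are known for their part in building axons during development. Cells also sense free tubulin: when it is in excess, Ttc5 recognises the first residues of a tubulin chain as it leaves the ribosome, and the mRNA being translated is degraded with the help of Scaper and the Ccr4-Not complex.

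The opening codons are shown because they encode the residues that Ttc5 reads. They came from the longest reading frame of each gene's transcripts in GENCODE vM21, run 5′ to 3′ from the start codon, and the capitals mark codons 2 to 4. The opening of Tuba1a is the same in Tuba1b and Tuba1c.
Tuba1a: atgCGTGAGTGC
Tuba4a: atgCGCGAGTGC
Tubb2a: atgCGCGAGATC
Tubb2b: atgCGAGAGATC
Tubb3: atgAGGGAGATC
Tubb4a: atgCGGGAAATC
Tubb5: atgAGGGAAATC
All of these openings encode arginine and then glutamate, and the fourth codon encodes cysteine in the alpha and isoleucine in the beta isotypes. Within a family the printed openings thus differ in codons and not in the encoded residues.

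For 4 isotypes the last 20 codons are shown with the stop codon. For their length, the tails they encode differ more than the rest of the protein between most isotypes of a family. Tubb2a and Tubb3 were 90.9% identical over the whole protein and 92.3% without the last 20 residues, so they also differ outside the tail. Tuba1a and Tuba1b, and Tubb2a and Tubb2b, were no more alike without the tail. The capitals mark the last codon before the stop.
Tuba4a: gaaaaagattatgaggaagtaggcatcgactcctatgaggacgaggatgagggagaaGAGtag
Tubb2a: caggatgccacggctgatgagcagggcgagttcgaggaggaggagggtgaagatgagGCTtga
Tubb3: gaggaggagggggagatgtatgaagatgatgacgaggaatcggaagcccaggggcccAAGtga
Tubb5: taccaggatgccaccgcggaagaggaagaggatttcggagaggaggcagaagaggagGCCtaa
Most alpha tubulins end in a tyrosine, the residue that Vash1 and Vash2 with Svbp remove and that Ttl adds back. In Tuba4a the last codon encodes glutamate, so this isotype is made without that tyrosine. In Tubb3 it encodes lysine, and in Tubb2a and Tubb5 alanine.

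Reads count for one isotype only where its sequence is its own. Over the coding sequence Tuba1a and Tuba1b were 98.3% identical and Tubb2a and Tubb2b 96.5%, whereas Tubb3 was 81.6% to 86.1% identical to the other beta isotypes. Of all stretches as long as 1 read in an isotype's transcripts, taken without the read's mate, 65.7% in Tuba1a, 65.0% in Tuba1b, 45.9% in Tuba1c, 36.7% in Tubb2a and 25.8% in Tubb2b also occur in a transcript of another gene. In Tuba4a the share was 32.3%, all of it with Stk16, which lies on the opposite strand. Tubb3, Tubb4a, Tubb5 and Tubb6 shared none. Reads that align to several places are listed apart in the tables, so the levels of the isotypes that share stretches may be understated, and Tuba1a, Tuba1b and Tuba1c are uncertain where reads could be split between them. Whether counting used the strand is not given in the sources used here, so reads of Tuba4a and Stk16 in their overlap could not be told apart.

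Positions below are of GRCm38 in GENCODE vM21, from the first to the last base of the gene, which includes exons, introns and untranslated ends. Tuba1b (ENSMUSG00000023004.8, 15:98931425-98934565), Tuba1a (ENSMUSG00000072235.5, 15:98949837-98953703) and Tuba1c (ENSMUSG00000043091.8, 15:99029891-99038110) are neighbours on chromosome 15. Tubb2a (ENSMUSG00000058672.6, 13:34074274-34078007) and Tubb2b (ENSMUSG00000045136.5, 13:34126748-34130466) are neighbours on chromosome 13. Tuba4a (ENSMUSG00000026202.13) lies at 1:75214228-75219865, Tubb3 (ENSMUSG00000062380.3) at 8:123411424-123422015, Tubb5 (ENSMUSG00000001525.10) at 17:35833921-35838306, Tubb4a (ENSMUSG00000062591.5) at 17:57080066-57087782 and Tubb6 (ENSMUSG00000001473.6) at 18:67390717-67402749.

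The libraries held 9478891 to 23082327 counts on genes, and no pair was identical. Sensory neuron markers such as Prph and Avil summed to 6555 to 8094 normalized CPM (counts scaled to a common library size), and none of the 9 was at or under 3 counts in every library of a group. Markers of satellite glia and Schwann cells summed to 165.6 to 251.6 CPM, most of it Mbp and S100b. The 4 endothelial markers summed to at most 1.46 CPM. The 5 myeloid markers summed to at most 7.17, the 6 fibroblast markers to at most 19.5, and the 7 cell division markers to at most 7.79. Replicate 1 of 16 HPI stood apart in residual rRNA, with 46160 CPM on a list of such entries. Control had 6909 to 9938, and replicates 2 and 3 of 16 HPI had 14100 and 10350. In bulk libraries like these, fewer cells of a type and less RNA per cell cannot be told apart.

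In control, the isotypes spanned about 3 orders of magnitude per exon length, in RPKM. RPKM are normalized CPM (counts scaled to a common library size) divided by the exon length in kilobases. Tuba1a had the highest level at 2681 ± 186 RPKM (SD, n = 3), followed by Tubb3 at 1585 ± 209 and Tubb2a at 1065 ± 80.7. Tubb5 had 838.7 ± 31.5 RPKM, Tubb2b 645.2 ± 58.9 and Tuba1b 300.4 ± 27.1. The lower end held Tubb4a at 113 ± 11.3 RPKM, Tuba1c at 77.3 ± 42.1, Tuba4a at 53.2 ± 4.28 and Tubb6 at 2.46 ± 0.316. Tubb4a and Tuba1c, and Tuba1c and Tuba4a, had overlapping control libraries, and every other pair of neighbours in this order was separate. The order of the means was the same in all 6 groups. Tubb6 was the scarce member, at 51 to 156 counts per library.

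**Figure D1:**
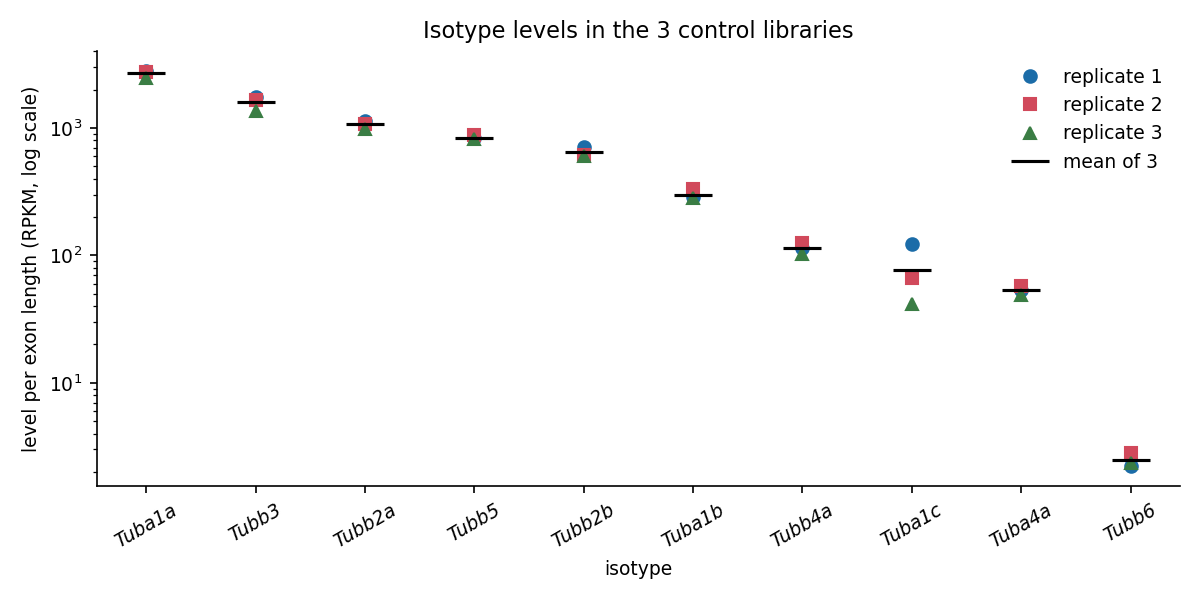
Level per exon length of the 10 isotypes in the 3 control libraries, in RPKM on a log axis, with each replicate as a symbol and the mean as a bar. Tuba1a is highest at a mean of 2681 RPKM and Tubb6 lowest at 2.46, and the 3 replicates of Tuba1c lie far apart.

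Within the alpha family, Tuba1a made up 86.2% ± 0.57 (SD, n = 3) of the summed control level, Tuba1b 9.67% ± 0.869, Tuba1c 2.44% ± 1.19 and Tuba4a 1.71% ± 0.0781. Among the listed beta isotypes, Tubb3 made up 37.2% ± 1.88, Tubb2a 25.1% ± 0.311, Tubb5 19.8% ± 1.44 and Tubb2b 15.2% ± 0.918. Tubb4a and Tubb6 held 2.67% ± 0.172 and 0.0582% ± 0.00833 of this beta level, which leaves out Tubb4b, at 283 RPKM in control. Most of the mRNA of the listed isotypes was thus of Tuba1a on the alpha side and of 4 genes on the beta side. The 10 isotypes together took 1.42% to 1.52% of the counts on genes in control and 1.21% to 1.37% at 16 HPI.

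In the first hours after injury, no isotype passed the test. Changes are log2 fold changes against control from one model of all 18 libraries with the replicate number as a batch term. A gene passed with a Benjamini-Hochberg adjusted p under 0.05 over all genes tested. At 1 HPI the isotypes lay between -0.43 (Tubb6) and 0.10 (Tuba1b), with a lowest adjusted p of 0.194 in edgeR's quasi-likelihood test. Of all genes, 0.0944% rose and 0.182% fell at 1 HPI. At 3 HPI they lay between -0.21 (Tubb6) and 0.16 (Tuba1a), with a lowest adjusted p of 0.138, while 0.0436% of all genes rose and 0.145% fell. An unadjusted p under 0.05 was found for 1 isotype at 1 HPI and 2 at 3 HPI, as for 1769 and 1999 of the 13771 genes tested, a like share. DESeq2's Wald test also called 0 of 10 at both times. The median over the isotypes was -0.00 at 1 HPI and 0.03 at 3 HPI, against 0.00 over all genes at each.

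Tubb6, a beta tubulin best known from cells outside the nervous system, had 5.40, 6.87 and 5.75 normalized CPM in control replicates 1, 2 and 3 and 4.54, 4.15 and 4.60 at 1 HPI. All 3 libraries of 1 HPI were below all 3 of control, as in 3.3% of all genes at this time. The difference of -0.43 ± 0.14 (SE) had an adjusted p of 0.194 by edgeR's quasi-likelihood test. Tuba1a, the most abundant isotype, had 5090, 4960 and 4454 normalized CPM in control and 5324, 5448 and 5382 at 3 HPI. The libraries of 3 HPI were all above those of control, as in 3.94% of all genes, and the difference of 0.16 ± 0.05 (SE) had an adjusted p of 0.144.

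At 8 HPI, 1 of 10 isotypes rose and none fell, beside 3.78% of all genes that rose and 3.9% that fell. The one that rose was Tuba1c, an alpha tubulin found in many tissues. Its normalized CPM in replicates 1, 2 and 3 were 283, 152 and 95.6 in control and 317, 174 and 109 at 8 HPI. The groups overlap when libraries are pooled, because the replicates differ far more than the times, but within each replicate number the value at 8 HPI was the higher one. The increase was 0.18 ± 0.05 (SE) on the log2 scale, with an adjusted p of 0.0209 by edgeR's quasi-likelihood test. It did not pass when any 1 control library or replicate 2 or 3 of 8 HPI was left out, with total counts as the scale, without the replicate number as a batch term, or with both groups fitted alone. The other isotypes lay between -0.25 (Tubb6) and 0.10 (Tuba1a), and the median of all 10 was -0.06.

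At 16 HPI, 8 of 10 isotypes fell and none rose, and none changed over 2-fold. Of all genes, 11.5% fell and 10.7% rose at this time, and 1.49% changed over 2-fold. Of the 1953 genes at a mean of 100 normalized CPM or more, where 9 of the 10 isotypes lie, 26.1% fell. All 10 isotypes had a log2 fold change below 0, with a median of -0.23 against -0.00 over all genes. The isotypes that fell were Tubb3, Tubb2b, Tubb4a, Tuba4a, Tubb2a, Tubb5, Tuba1b and Tuba1c, and Tuba1a and Tubb6 did not pass.

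Tubb3, the neuronal beta tubulin, had 3257, 3108 and 2518 normalized CPM in control replicates 1, 2 and 3 and 2463, 2398 and 1863 at 16 HPI. Every library of 16 HPI was below every control library, and within each replicate number the step was alike, between -0.44 and -0.37. Tubb3 fell by 0.40 ± 0.05 (SE) on the log2 scale, or 24.4%, with an adjusted p of 1.09e-05 by edgeR's quasi-likelihood test. Tubb2b, the beta tubulin known from neuronal migration and axon growth, had 1635, 1415 and 1390 normalized CPM in control and 1314, 1016 and 1125 at 16 HPI. Its groups did not overlap, and it fell by 0.36 ± 0.07 (SE), with an adjusted p of 0.000421. Tubb4a, the beta tubulin most abundant in brain and oligodendrocytes, had 254, 277 and 227 normalized CPM in control and 205, 229 and 162 at 16 HPI. Replicate 2 of 16 HPI was just above replicate 3 of control, and Tubb4a fell by 0.35 ± 0.08 (SE), with an adjusted p of 0.00282.

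Tuba4a, the alpha tubulin encoded without the last tyrosine, had 198, 212 and 181 normalized CPM in control and 159, 168 and 152 at 16 HPI. The groups did not overlap, and Tuba4a fell by 0.30 ± 0.05 (SE) on the log2 scale, or 18.8%, with an adjusted p of 0.000317. Tubb5, a beta tubulin of most cell types, had 2759, 2907 and 2705 normalized CPM in control and 2518, 2436 and 2196 at 16 HPI, again without overlap. It fell by 0.23 ± 0.05 (SE), with an adjusted p of 0.0016. Tubb2a, close in sequence to Tubb2b, fell by 0.23 ± 0.05 (SE), with an adjusted p of 0.00329, and 1 library of 16 HPI, replicate 2 at 1625 normalized CPM, was above replicate 3 of control at 1574. Lower in all 3 replicate numbers but with overlapping groups were Tuba1b, which fell by 0.19 (adjusted p = 0.016), and Tuba1c, which fell by 0.18 (adjusted p = 0.00816). In all, 4 isotypes had every library of 16 HPI below every control library, as had 9.49% of all genes.

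Tuba1a had 4366, 4691 and 4150 normalized CPM at 16 HPI, and its difference from control of -0.13 ± 0.05 (SE), or -8.92%, had an adjusted p of 0.0523 by edgeR's quasi-likelihood test. This isotype lay close to the threshold: it passed in DESeq2's Wald test and where residual rRNA and mitochondrial genes were left out of the library size, and then 9 of 10 isotypes fell. Tubb6 differed by -0.06 ± 0.13 (SE), with an adjusted p of 0.814. The 8 isotypes also passed without replicate 1 of 16 HPI, the library rich in residual rRNA. Tuba1b did not pass without replicate 2 of control or replicate 3 of 16 HPI. With total counts as the scale 6 passed, without Tuba1b and Tuba1c. Without the replicate number as a batch term, Tuba4a was the 1 isotype that passed, and with control and 16 HPI fitted alone 5 passed.

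**Figure D2:**
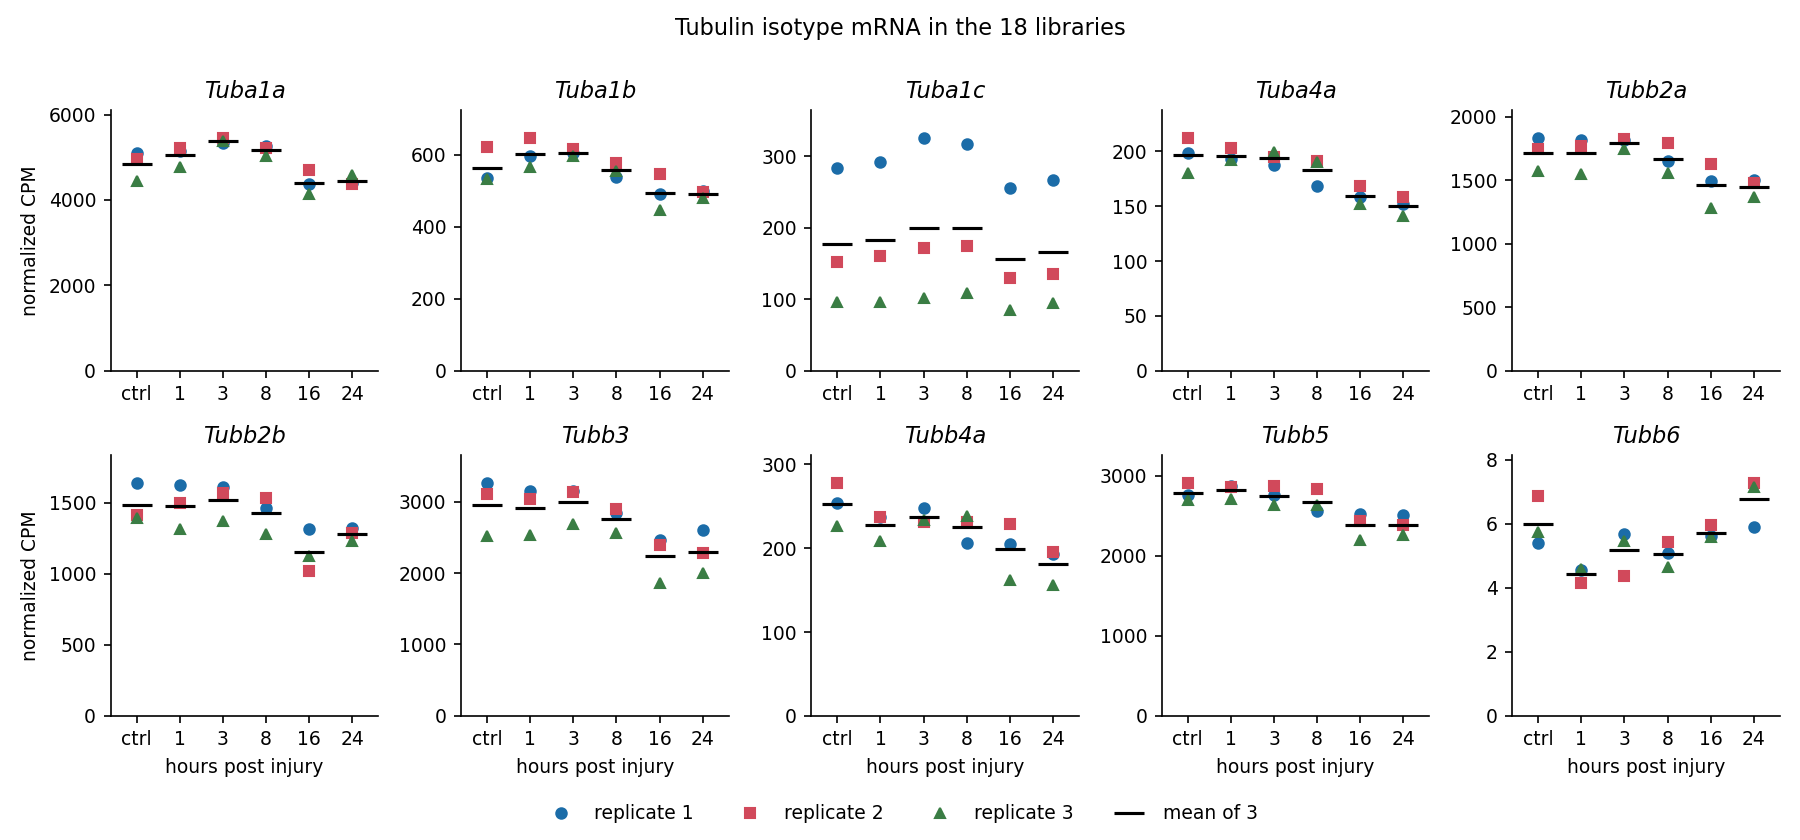
Normalized CPM of each isotype (1 panel each, axes from 0) by group from control to 24 HPI, with the 3 replicate numbers as symbols and the mean as a bar. Most isotypes sit lower at 16 and 24 HPI, as Tubb3 does at means of 2241 and 2292 against 2961 in control, and Tuba1c keeps the same large gap between replicates in every group.

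Markers of cell content moved as follows beside the decrease at 16 and 24 HPI. The 9 sensory neuron markers summed to 7147 to 8094 CPM in control and 6555 to 7478 at 16 HPI. Of them 0 rose and 2 fell at 16 HPI, the sodium channels Scn9a by 0.57 and Scn10a by 0.49, whereas the neuronal intermediate filament Prph differed by -0.01 (adjusted p = 0.902). S100b, a marker of satellite glia and Schwann cells, fell by 0.33 at 16 HPI. The fibroblast marker Dcn rose by 2.07 from 0.571 to 2.47 normalized CPM, and the myeloid marker Cd68 by 0.97 from 0.870 to 1.72. At 24 HPI the sensory neuron markers summed to 6692 to 7578 CPM, with 2 that rose (Isl1 and Pou4f1) and 3 that fell, among them Scn9a and Scn10a. S100b fell by 0.26 at 24 HPI (adjusted p = 0.0152), whereas Dcn rose by 2.22 to 2.79 normalized CPM, Cd68 by 0.93 to 1.67 and the cell division gene Top2a by 1.44 from 0.559 to 1.54. The part of these shifts in the tubulin result was not tested.

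At 24 HPI, 7 of 10 isotypes fell and none rose, while 9.03% of all genes fell and 5.99% rose. Of the genes at 100 normalized CPM or more, 23.7% fell. The lowest value was that of Tubb4a, at 192.5, 195.0 and 156.5 normalized CPM in replicates 1, 2 and 3. All of them were below control, and Tubb4a fell by 0.48 ± 0.08 (SE) on the log2 scale, or 28.3%, with an adjusted p of 0.000379 by edgeR's quasi-likelihood test. Tuba4a, at 152, 158 and 141 normalized CPM, was also below every control library and fell by 0.39 ± 0.05 (SE), with an adjusted p of 5.17e-05. Tubb3 had 2604, 2277 and 1997 normalized CPM at 24 HPI, so that replicate 1 was above replicate 3 of control, and fell by 0.37 ± 0.05 (SE), with an adjusted p of 6.79e-05.

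The other isotypes that fell at 24 HPI were Tubb2a by 0.24 (adjusted p = 0.00377), Tubb5 by 0.22 (0.00332), Tubb2b by 0.21 (0.039) and Tuba1b by 0.19 (0.021). Of these Tubb2b no longer passed in 9 of the 18 fits that each left out 1 library, which included every library of control and of 24 HPI, replicates 1 and 2 of 1 HPI and replicate 1 of 3 HPI. Tuba1b did not pass without replicate 2 of control or of 24 HPI. Tuba1a at -0.12 (adjusted p = 0.118), Tuba1c at -0.09 (0.203) and Tubb6 at 0.20 (0.322) did not pass. Tubb6 was the 1 isotype with a value above 0, at 5.89, 7.26 and 7.14 normalized CPM, in groups that overlapped control. Every library of 24 HPI was below every control library for 6 isotypes, as for 7.92% of all genes. Without the replicate number as a batch term, Tuba4a was again the 1 isotype that passed.

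Set directly against 8 HPI, 8 of 10 isotypes fell at 16 HPI, beside 7.86% of all genes and 22.4% of those at 100 normalized CPM or more. The 8 include Tuba1a, which fell by 0.23 ± 0.05 (SE) with an adjusted p of 0.00266, from 5260, 5223 and 5028 normalized CPM at 8 HPI to the values above. Tuba1c had the lowest value, a fall of 0.36 ± 0.05 (SE) with an adjusted p of 3.6e-05. Tubb4a at -0.20 (adjusted p = 0.105) and Tubb6 at 0.19 (0.392) did not pass. The count fell to 4 without replicate 3 of either group, to 5 with both groups fitted alone, and to 0 without the replicate number as a batch term. Between 16 and 24 HPI no isotype passed, where 6.22% of all genes fell and 3.59% rose. There the isotypes lay between -0.13 (Tubb4a) and 0.25 (Tubb6), 1 had an unadjusted p under 0.05 (3280 of the 13771 genes tested did), and DESeq2's Wald test called 0. The comparisons of each time with control share the control libraries, and those with 16 HPI share its libraries, so they are not independent of each other.

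**Figure D3:**
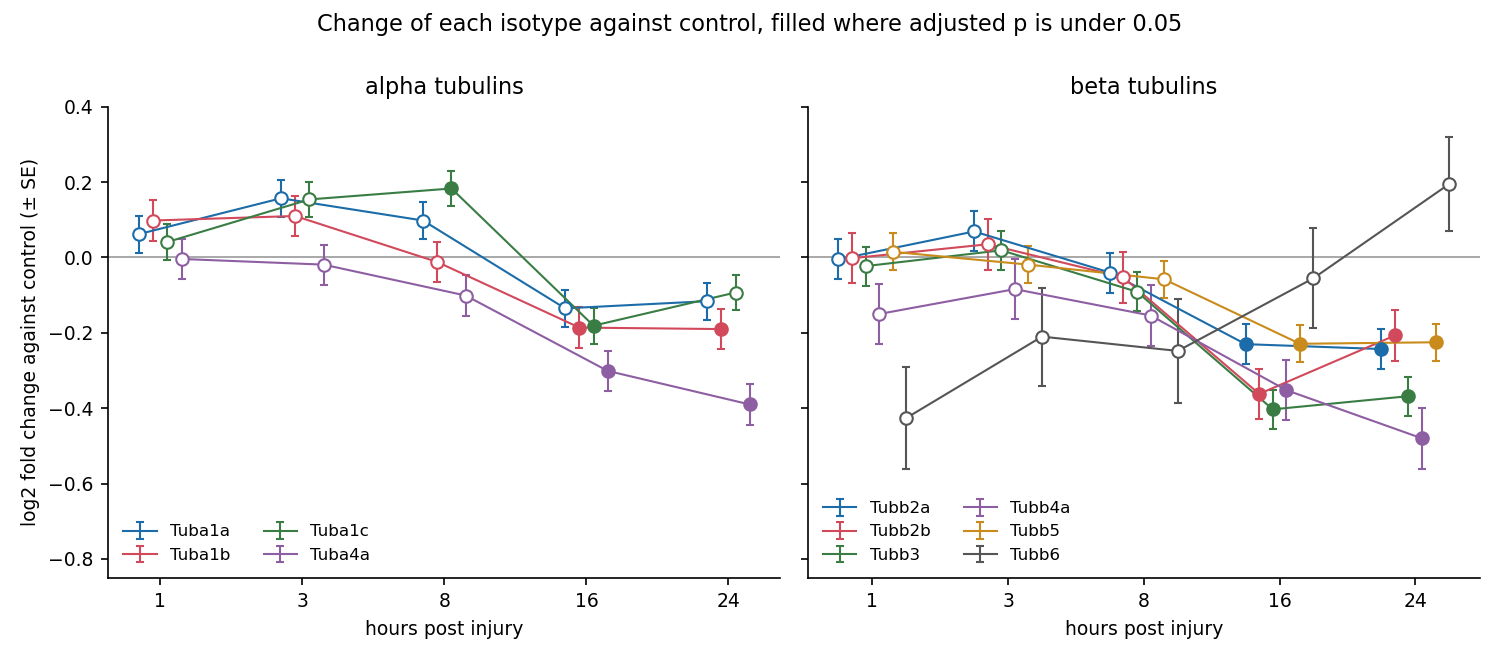
Log2 fold change of each isotype against control, by hours post injury, alpha tubulins on the left and beta tubulins on the right, with bars for the standard error and filled symbols where the adjusted p was under 0.05. Filled symbols first appear with Tuba1c at 8 HPI and then lie below 0 for 8 isotypes at 16 HPI and 7 at 24 HPI, with Tubb6 at 0.20 and not filled at 24 HPI.

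Asked as a single question per gene, whether the 6 groups differed at all, each of the 10 isotypes passed, as did 30% of all genes. Tubb3 had the lowest adjusted p at 1.95e-06, Tuba4a followed at 1.5e-05, and Tubb6 had the highest at 0.0118. Without the batch term Tuba4a alone passed this test.

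Summed over the listed isotypes, the beta level lay further below control than the alpha level at 16 and 24 HPI. The summed alpha level was 3286, 3206 and 2845 RPKM in control replicates 1, 2 and 3 and 2838, 2996 and 2619 RPKM at 16 HPI, or 90.6% ± 3.76 (SD, n = 3) of the control library with the same number. The summed beta level was 4538, 4363 and 3849 RPKM in control and 3669, 3573 and 3017 RPKM at 16 HPI, or 80.4% ± 1.8. At 24 HPI the alpha level stood at 91.8% ± 8.06 and the beta level at 82.1% ± 1.53 of control. At 3 HPI, before any isotype passed the test, the alpha level was 111.2% ± 7.4 of control and the beta level 101.6% ± 3.02.

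The ratio of the alpha to the beta level was 0.733 ± 0.00773 (SD, n = 3) in control, with libraries between 0.724 and 0.739. Relative to control it stood at 105.5% ± 2.73 after 1 h and 109.4% ± 4.7 after 3 h. At 8, 16 and 24 HPI it stood at 111.6% ± 5.24, 112.8% ± 5.43 and 111.9% ± 8.41. All 15 libraries after injury were above all 3 control libraries in this ratio, the lowest of them at 0.745. This ratio does not depend on the scaling between libraries. With 3 batches, the exact two-sided permutation of signs allows no p under 0.25, and every time point reached that value. The alpha sum weighs Tuba1a most, an isotype with many shared stretches, and the beta sum leaves out Tubb4b.

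**Figure D4:**
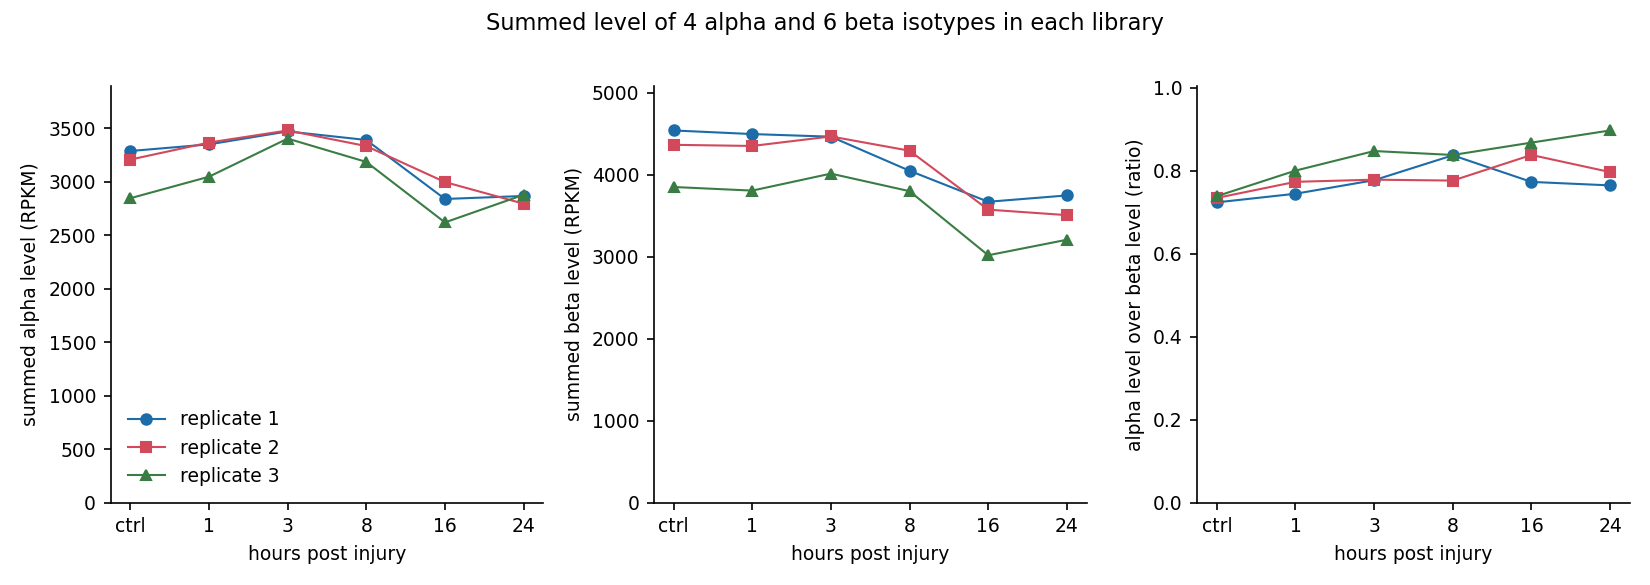
Summed level of the 4 alpha isotypes (left), of the 6 beta isotypes (middle) and their ratio (right) in each library, in RPKM for the sums, with lines joining libraries of the same replicate number and axes from 0. Both sums are lower at 16 and 24 HPI, and the ratio is above its control values of 0.724 to 0.739 at each time after injury.

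Within the summed level of the listed beta isotypes, the share of Tubb3 was 37.2% ± 1.88 (SD, n = 3) in control, 35.0% ± 1.66 at 16 HPI and 35.1% ± 1.96 at 24 HPI. The differences of -2.22 and -2.09 percentage points were lower in all 3 batches, with an exact permutation p of 0.25 each, the smallest that this design allows, and an adjusted p of 0.595 over the 50 shares and times compared. Tubb5 took a larger share in all 3 batches at both times, by 1.19 and 0.81 percentage points, with the same p. Tuba4a held a smaller share of the alpha level in all 3 batches at every time after injury, from 1.71% ± 0.0781 in control to 1.43% ± 0.102 at 24 HPI. The share of Tuba1a differed by 0.51 percentage points at 16 HPI, higher in 2 of 3 batches (exact permutation p = 0.5).

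The replicate number separated Tuba1c more than any time point did. Over the 6 groups, Tuba1c had 255.1 to 325.0 normalized CPM in replicate 1, 129.3 to 173.7 in replicate 2 and 85.3 to 109 in replicate 3, with no overlap. On the log2 scale it was 0.92 lower in replicate 2 and 1.58 lower in replicate 3 than in replicate 1, with an adjusted p of 1.32e-18 for the batch term in edgeR's quasi-likelihood test. By that p it ranked 4 among all genes tested. The batch term passed in 60.9% of all genes, and 480 genes differed over 2-fold between replicates 3 and 1. For the other 9 isotypes, replicate 3 lay between -0.31 (Tubb3) and 0.04 (Tubb6) of replicate 1. What the replicate number stands for is not stated in the labels.

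**Figure D5:**
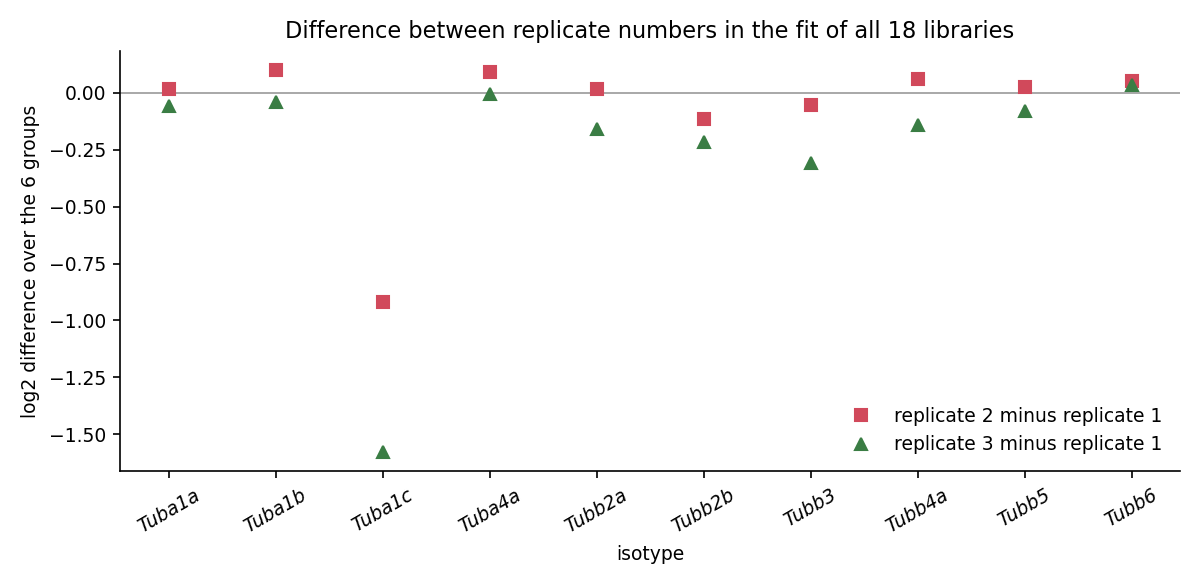
Log2 difference of replicate 2 and of replicate 3 from replicate 1 for each isotype, fitted over the 6 groups of 18 libraries. Tuba1c lies at -0.92 and -1.58, and the other isotypes lie between -0.31 and 0.10.

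Across libraries, Tubb6 differed in sign of correlation from the other isotypes. With the batch removed, Pearson's r over the 18 libraries between pairs of the other 9 isotypes lay between 0.496 (Tuba1c and Tubb4a) and 0.957 (Tubb3 and Tubb5), and r of Tubb6 with the others lay between -0.58 and -0.35. Of all genes tested, the 5 closest to Tubb3 included Tubb4b, a beta tubulin outside the 10 (r = 0.968), Hip1, which links clathrin and actin (0.966), Tubb5 (0.957) and the neuronal alpha-catenin Ctnna2 (0.950). The 5 closest to Tuba4a included Tubb3 (r = 0.947), the synaptic adhesion protein Clstn2 (0.946), Erich3 (0.933) and the PACAP receptor Adcyap1r1 (0.932). These correlations are descriptions over libraries that share their scaling and time course, and Tuba4a shares reads with no other isotype.

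Of 10 other tubulin genes listed, 5 were tested. Tubb4b, whose protein is found in most tissues, had 591 ± 116 normalized CPM (SD, n = 3) in control and 447 ± 84 at 16 HPI, and fell by 0.40 at 16 HPI and 0.33 at 24 HPI. Tubg1, the gamma tubulin that nucleates microtubules, fell by 0.24 at 16 HPI (adjusted p = 0.0112). Tubg2, Tubd1 and Tube1 did not pass against control. The other 5, Tuba3a, Tuba3b, Tuba8, Tubal3 and Tubb1, did not reach over 4 counts in any library.

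Tubulin is folded by prefoldin and the CCT chaperonin and then assembled into dimers by the cofactors Tbca to Tbce with Arl2. Of 21 such genes tested, none passed at 1, 3, 8 or 16 HPI, and the median at 16 HPI was 0.03. At 24 HPI the prefoldin subunits Pfdn6 and Pfdn1 rose, by 0.22 (adjusted p = 0.0427) and 0.21 (adjusted p = 0.0183), and none fell, where 5.99% of all genes rose.

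Of 20 tested genes for enzymes that modify tubulin, 2 rose and 4 fell at 16 HPI, 1 rose and 2 fell at 24 HPI, and 1 fell at 8 HPI. Of all genes, 10.7% rose and 11.5% fell at 16 HPI and 5.99% rose and 9.03% fell at 24 HPI, so apart from the 4 that fell at 16 HPI these counts are close to or under the share of all genes. Vash2, which removes the last tyrosine of alpha tubulin, rose by 0.28 at 16 HPI (adjusted p = 0.0267 by edgeR's quasi-likelihood test). At 24 HPI Vash2 stood at -0.05 against control without passing, and it fell by 0.34 from 16 to 24 HPI (adjusted p = 0.0191, same test). Over that step 6.22% of all genes fell. Svbp, the partner of Vash2, rose by 0.33 at 24 HPI (adjusted p = 0.0263), and Vash1 differed by 0.01 at 16 HPI and 0.07 at 24 HPI without passing. Ttl, which restores the tyrosine, fell by 0.18 at 16 HPI and 0.20 at 24 HPI, from 374 ± 25.1 normalized CPM (SD, n = 3) in control to 327 ± 38.5. The glutamylase Ttll4 fell by 0.34 at 8 HPI and rose by 0.26 at 16 HPI. Ttll5, another glutamylase, fell by 0.21 at 16 HPI and 0.29 at 24 HPI, and Tpgs2, a subunit of a glutamylase complex, fell by 0.21 at 16 HPI. Agtpbp1, which trims glutamates from tubulin, fell by 0.18 at 16 HPI. The acetylase Atat1, at -0.27 and -0.24, and the deacetylase Hdac6, at -0.04 and -0.11, did not pass at 16 or 24 HPI.

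Of the 3 tested genes of tubulin mRNA autoregulation, 2 fell at 16 HPI, where 11.5% of all genes fell, and none passed at 24 HPI. Ttc5, which binds the opening residues shown above, had 45.4 ± 3.31 normalized CPM (SD, n = 3) in control, 39.6 ± 2.35 at 16 HPI and 45.3 ± 0.813 at 24 HPI, and fell by 0.20 at 16 HPI (adjusted p = 0.0165). Scaper fell by 0.23 at 16 HPI (adjusted p = 0.00129) and stood at -0.08 at 24 HPI. Both then rose from 16 to 24 HPI, a step over which 3.59% of all genes rose and no isotype passed. Cnot11 differed by -0.02 at 16 HPI.

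Of 15 tested genes that nucleate or sever microtubules, 1 rose and 1 fell at 16 HPI, a smaller share than the 10.7% and 11.5% of all genes. Cdk5rap2, a scaffold of the gamma-tubulin ring complex, fell by 0.39 at 16 HPI and 0.33 at 24 HPI, from 40.4 ± 1.85 normalized CPM in control (SD, n = 3) to 30.9 ± 1.84 and 32.3 ± 4.53. Fignl1, of the severing family, rose by 1.01 at 16 HPI, from 0.726 to 1.51 normalized CPM, with at most 34 counts in any library. It stood at 0.997 at 1 HPI, 0.19 at 8 HPI and 0.46 at 24 HPI without passing. The severing enzyme Spast, at 108 normalized CPM in control, differed by -0.03 at 16 HPI and 0.07 at 24 HPI without passing.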

How the data were processed

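Counts per gene of 18 libraries were used as deposited. The authors trimmed the reads, aligned them with STAR to the mouse genome and counted them on genes, and no normalization was applied to the deposited counts. The study's methods name featureCounts, whereas the submitters' processing notes list HTSeq, whose names mark the 5 entries that close each table. These entries, which together hold 25.2% to 33.2% of all counts, stayed out of library sizes. Among them are reads that align to several places (14.7% to 19.8% of all counts), ambiguous reads and reads on no gene. Symbols, positions and exon lengths came from GENCODE vM21, which named 47224 of 47643 identifiers and left 419 unmatched.

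A gene was tested where 3 or more libraries exceeded 1 CPM (13771). Counts were normalized by TMM and fitted in edgeR 4.0.16 (R 4.3.3) by quasi-likelihood, with time point and replicate number as terms, two-sided, with Benjamini-Hochberg adjustment over the genes tested in each comparison. Standard errors came from the same fits. DESeq2 1.42.0 was an alternative. Values for correlations were log2 CPM with a prior count of 2 and the batch removed with limma 3.58.1. Shares and pools used RPKM, computed here from the deposited counts after TMM over the total exon length. Figures were made in Python 3.11.15.

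The labels give the replicate numbers. Deviations from group means correlated at 0.484 to 0.765 between the 45 pairs of libraries with the same number and at -0.577 to -0.042 between the 90 with different numbers, so the number was kept as a batch. On simulated counts for 16 HPI against control, 28 of 32 genes over 100 CPM changed by 1.25-fold were recovered, and 89 of 200 over all levels, with 2 false calls among 13545 genes. The simulated counts held no difference between replicate numbers and no changed genes beyond those 200, so this recovery may not carry over to the data.

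The 10 isotypes and the gene lists were chosen with earlier results of these data known. Named beside the isotypes were the genes of each pathway list that passed against control, at most the 3 furthest in each direction, and the 5 genes closest to the 2 isotypes with the smallest p for any difference, and some of these genes and sequences are not reported here. Genes named outside that rule, namely Ttl and Agtpbp1, the markers of cell types, and the pathway genes that did not pass, were chosen after their values were seen. Alternatives were other scalings, filters and fits and leaving out each library.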

Additional observations from a re-analysis of the deposited data

How the results depend on the processing

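The decrease at 16 and 24 HPI depended on the replicate number as a batch term more than on scaling, filter or test. Of the isotype values that passed against control at 8, 16 and 24 HPI and at 16 against 8 HPI, 24 in all, 648 values under alternatives kept their direction, 571 still passed and 77 did not. With no replicate block, 0 isotypes passed at 8 HPI, 1 at 16 HPI, 1 at 24 HPI, 0 at 16 against 8 HPI and 1 for any difference between the groups, which was Tuba4a each time. With the compared groups alone, 1 passed at 1 HPI (Tubb4a), 0 at 8 HPI, 5 at 16 HPI and 5 at 16 against 8 HPI. With total counts on genes as the scale, 0 passed at 8 HPI, 6 at 16 HPI (not Tuba1b and Tuba1c), 5 at 24 HPI (not Tuba1b and Tubb2b) and 4 at 16 against 8 HPI. With upper-quartile factors 8 passed at 16 HPI, 5 at 24 HPI (again not Tuba1b and Tubb2b) and 5 at 16 against 8 HPI. Leaving out 1 library at a time gave 0 to 1 isotypes at 8 HPI (0 without control replicate 1, 2 or 3 or 8 HPI replicate 2, and Tubb4a in place of Tuba1c without 8 HPI replicate 3), 7 to 9 at 16 HPI, 5 to 7 at 24 HPI and 4 to 8 at 16 against 8 HPI (4 without 8 HPI replicate 3 or 16 HPI replicate 3). At 3 HPI and at 24 against 16 HPI, 0 passed under every alternative run. The causes of these shifts were not tested. Only part of the values that did not pass were followed under the alternatives, and among those the sign of 2 depended on single libraries. Tuba1b at 8 HPI ranged from -0.048 to 0.025 when 1 library was left out, and was above 0 without 3 of them, and Tubb6 at 16 HPI ranged from -0.116 to 0.047 and was above 0 without control replicate 2. The test of any difference could not be run with the compared groups alone, since it uses all groups. The changes in the shares of Tubb3 and Tuba1a and the alpha to beta ratio moved by less than their spread under each alternative run. Depth limits Tubb6 most, at 51 to 156 counts per library, and counting intervals cover counting error only.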
